A study of Mus musculus with 16 samples.

Results

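The aminoacyl-tRNA synthetase genes of mouse liver were followed across a hepatocyte knockout of Slc25a47 and an overnight fast. They were taken by gene name: a 1-letter amino acid code followed by ars, with or without a closing 1 or 2, together with Eprs, Farsa, Farsb, Fars2, Ears2 and Pars2. This gave 37 of the 53714 genes counted. Those 17 whose name ends in 2 encode the mitochondrial enzymes and the other 20 the cytosolic ones. All 37 had enough reads to be tested.

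Polyadenylated RNA was sequenced from livers of male mice aged 9 weeks, in 4 groups of 4 libraries. All animals carried the strain label C57BL/6 Slc25a47tm1c(EUCOMM)Hmgu. Knockout mice (KO, genotype Slc25a47hep-/-) and controls (WT, Slc25a47hep+/+) were either left on chow (fed) or fasted overnight (fasted) before sampling. The Cre driver behind the hepatocyte deletion is not given in the sources used here, nor is it stated whether each library came from a separate mouse, so p-values measure only the spread between these libraries.

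Each synthetase joins 1 kind of amino acid to its tRNAs, which then serve the ribosome. Cytosolic enzymes supply translation of nuclear-encoded messages, and the mitochondrial enzymes, encoded in the nucleus and imported, supply the small set of proteins translated inside the organelle. Gars and Kars each encode both a cytosolic and a mitochondrial form, Eprs joins both glutamate and proline, and Farsa and Farsb encode the subunits of a single enzyme. Several cytosolic enzymes sit together in the multisynthetase complex. Many cytosolic synthetase genes are known targets of ATF4, the transcription factor of the integrated stress response, and Wars, the tryptophan enzyme, is known to be induced by interferon.

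Libraries held 19.6 to 27.3 M gene reads each. The targeted gene, Slc25a47, a mitochondrial carrier enriched in liver, measured 637 ± 154 CPM (SD, n = 4) in fed WT, 126 ± 32.2 in fed KO, 950 ± 129 in fasted WT and 261 ± 77.2 in fasted KO, so the KO libraries kept part of its reads. CPM stands for gene reads scaled to a common library size of 1 M by edgeR's TMM method. Hepatocyte markers (9 of the 10 listed were tested) summed to 136000 to 146000 CPM in fed WT and lower, 94000 to 127000, in fed KO. Their sums were 109000 to 152000 in fasted WT and 119000 to 138000 in fasted KO. Of the 9, 4 were called lower in fed KO and 5 in fasted KO, beside 16.9% and 14.5% of all genes tested. Summed stellate cell markers ran higher in KO, 470 to 530 CPM fed and 416 to 508 fasted, than in WT, 320 to 381 fed and 324 to 395 fasted. Transcripts of pancreatic acinar cells stood at 1890 CPM in fasted WT replicate 2 and 522 in fasted WT replicate 4, against at most 81.2 in any other library, and 11 of the 15 were at 0 throughout fed WT. In a bulk sample, fewer cells of a type and less RNA per cell cannot be told apart.

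Per kilobase of merged exons, the cytosolic gene with the highest value in fed WT was Tars, for threonine, at 36.1 ± 3.89 CPM per kb (SD, n = 4). It was followed by Nars, for asparagine, at 27.7 ± 1.8 and Aars, for alanine, at 26.8 ± 2.41, whose ranges overlapped with each other but not with Tars. Wars ranked 15 of 20 at 6.14 ± 0.272, and Farsa was lowest at 3.98 ± 0.238. The mitochondrial genes ran from Iars2, for isoleucine, at 7.56 ± 0.510 to Mars2, for methionine, at 0.253 ± 0.0453, so the upper mitochondrial genes lay among the lower cytosolic ones. Most neighbours in these orders could not be told apart by their ranges, with 12 of 19 cytosolic and 10 of 16 mitochondrial neighbours overlapping. Wars took the last of the 20 places in fed KO, at 3.47 ± 0.633, where its range overlapped that of Cars, and in fasted KO, at 1.89 ± 0.164, where it lay below all the others. Merged exons cover all annotated transcripts of a gene, 9282 bases for Aars and 5901 for Tars, so these orders depend on the annotation. Without division by length, Aars stood at 249 ± 22.3 CPM in fed WT and Tars at 213 ± 22.9, with overlapping ranges. Raw counts behind these levels were 149 to 8470 per library for cytosolic genes and 15 to 1969 for mitochondrial ones, with Pars2 lowest.

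Promoter letters are shown here for the 5 cytosolic genes that hold a core of the element bound by ATF4 and its C/EBP partners. Sars, whose rise in KO was the largest, is shown too and holds none in the 300 bases searched. Those bases all lie before the gene span of Sars given below, which begins at 108445209 on the reverse strand. The core searched was TGATGNAA, on either strand, where N is any base, and no other motif overlapped it. Each line gives 150 bases, 125 before and 25 from the annotated start on, read 5′ to 3′ along the gene's strand, with the core in capitals (it reads TTNCATCA where it lies on the other strand). Sequences are from RefSeq on GRCm38.p6: Aars at chr8:111033717-111033866 (+), Gars at chr6:55037876-55038025 (+), Iars at chr13:49682005-49682154 (+), Yars at chr4:129189778-129189927 (+), Tars at chr15:11399634-11399783 (-) and Sars at chr3:108445235-108445384 (-).
Aars: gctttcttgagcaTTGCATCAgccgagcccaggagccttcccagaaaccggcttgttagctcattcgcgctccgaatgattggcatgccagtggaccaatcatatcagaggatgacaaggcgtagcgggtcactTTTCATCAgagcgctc
Gars: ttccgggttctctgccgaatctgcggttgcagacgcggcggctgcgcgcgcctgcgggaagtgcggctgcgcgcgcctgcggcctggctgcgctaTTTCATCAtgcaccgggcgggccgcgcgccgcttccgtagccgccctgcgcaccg
Iars: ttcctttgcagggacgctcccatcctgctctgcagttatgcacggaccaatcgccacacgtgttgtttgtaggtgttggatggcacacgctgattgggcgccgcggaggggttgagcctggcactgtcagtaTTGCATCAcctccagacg
Yars: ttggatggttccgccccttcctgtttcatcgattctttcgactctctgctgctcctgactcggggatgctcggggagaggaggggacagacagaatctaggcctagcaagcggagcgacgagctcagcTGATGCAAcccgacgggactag
Tars: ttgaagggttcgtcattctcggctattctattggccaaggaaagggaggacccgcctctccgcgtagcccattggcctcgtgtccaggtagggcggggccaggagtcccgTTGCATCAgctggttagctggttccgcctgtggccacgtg
Sars: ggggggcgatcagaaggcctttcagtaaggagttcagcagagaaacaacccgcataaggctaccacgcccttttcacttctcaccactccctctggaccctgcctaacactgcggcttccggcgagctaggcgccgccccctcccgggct
Within 250 bases before and 50 after the start, the core stood in 5 of the 13 cytosolic genes with a promoter in the table (38.5%), in 0 of 14 mitochondrial genes and in 3.97% of all 32851 promoters. A match is a description of the letters and not a binding site. Of the 5 genes, Aars, Gars, Iars and Yars passed the test as higher in fasted KO and Tars did not. In fed KO Gars alone of the 5 passed. Among the searched cytosolic genes without the core, Eprs, Farsb and Sars were higher in fasted KO. Dars, Farsa, Kars, Mars and Qars, also without it, did not pass there. Over all genes tested 13.8% were higher in fasted KO. Whether the core bears on these changes was not tested. The promoter of Wars was not searched. A core of the interferon response element, searched in the same way, stood in Qars alone among the 13 cytosolic and 14 mitochondrial genes searched and in 3.44% of all promoters, and a core of the NRF1 site stood in 0 of them and in 0.971% of all.

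With free food, the knockout livers had more Sars and Gars mRNA and less Wars, Cars, Mars and Hars mRNA than controls. Of 20 cytosolic genes 6 were higher and 4 lower by edgeR's quasi-likelihood test (adjusted p under 0.05), with a median log2 fold change of 0.11. Over all 13905 genes tested 14% were called higher and 16.9% lower, 30.9% in all, with a median of -0.01. Groups did not overlap in 5 cytosolic genes above and 5 below, where 12.9% and 15.4% of all genes stood apart in those directions.

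Sars, the serine enzyme on chromosome 3 (108424865 to 108445209, GRCm38), measured 55.4, 54, 55.4 and 59.3 CPM in fed WT and 96.4, 94.5, 104 and 84 in fed KO. Every KO library lay above every WT library. The rise was 0.76 ± 0.09 (SE) on the log2 scale, with an edgeR adjusted p of 4.96e-06. Gars, for glycine, on chromosome 6, stood at 39.9, 43.7, 40.5 and 43.9 CPM in fed WT and at 68.2, 65.7, 71.3 and 68.5 in fed KO. Again the groups stood apart, with a rise of 0.70 ± 0.08 (edgeR adjusted p 5.25e-06). The smaller rises were Vars, for valine, by 0.40 ± 0.10, Eprs by 0.32 ± 0.09 with overlapping groups, Farsa by 0.24 ± 0.08 and Kars, for lysine, by 0.23 ± 0.06 (adjusted p between 0.00471 and 0.0409). The call of Farsa was lost in 9 of 23 alternative settings, among them no filter on low counts (0.114) and each fit without 1 fed KO library. Farsb, its partner subunit, had a value of 0.24 and an adjusted p of 0.0602, so it did not pass.

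Wars gave the lowest value of all 37 genes. Its CPM was 21.1, 22.5, 20.5 and 20.5 in fed WT and 11.1, 15, 11.9 and 9.85 in fed KO, with no overlap. The fall was -0.82 ± 0.11 on the log2 scale (edgeR adjusted p 1.6e-05). Cars, the cysteine enzyme, fell by 0.38 ± 0.10, Mars, for methionine, by 0.37 ± 0.08 and Hars, for histidine, by 0.28 ± 0.08 (adjusted p 0.00886, 0.00164 and 0.0145). Mars shares 1.99% of its exon bases with Ddit3, an ATF4-induced gene on the opposite strand. These last 3 falls depended on the scaling. With library totals alone, which moved the median of all genes to 0.22, 13 cytosolic genes were called higher and only Wars lower. Mars then stood at an edgeR adjusted p of 0.158, Cars at 0.217 and Hars at 0.523. With TMM scaling the Hars call was also lost without fed KO replicate 1 (0.0586) or 3 (0.0518). Scaling by library totals called 4886 of all 13905 genes tested higher and 915 lower.

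Among the 17 mitochondrial genes in fed livers 3 were higher and 3 lower, with a median of -0.08. Nars2, the mitochondrial asparagine enzyme, fell most: 22, 25.7, 25.9 and 23.2 CPM in fed WT against 15.8, 17.2, 15.2 and 17.8 in fed KO. The groups stood apart, with a change of -0.56 ± 0.08 (edgeR adjusted p 5.12e-05). Fars2, for phenylalanine, fell by 0.29 ± 0.08 and Hars2 by 0.23 ± 0.08, neither of which passed under library totals (adjusted p 0.559 and 0.956). The call of Hars2 was lost in 8 of 23 alternative settings, among them no filter on low counts (0.058). Aars2, Wars2 and Yars2 rose by 0.38 ± 0.09, 0.35 ± 0.12 and 0.33 ± 0.08 (adjusted p 0.00477, 0.0314 and 0.00436). The fed call of Wars2 was lost in 6 of 23 alternative settings, with an adjusted p of up to 0.0993. Rars2, for arginine, was at -0.38 with an adjusted p of 0.051 and Pars2, for proline, at -0.51 ± 0.31 with 0.225, so neither passed. The called share of mitochondrial genes lay near that of all genes. With library totals 5 were higher and 1 lower and the median was 0.14. Over all 13905 genes tested that scaling called 4886 higher and 915 lower.

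**Figure D1:**
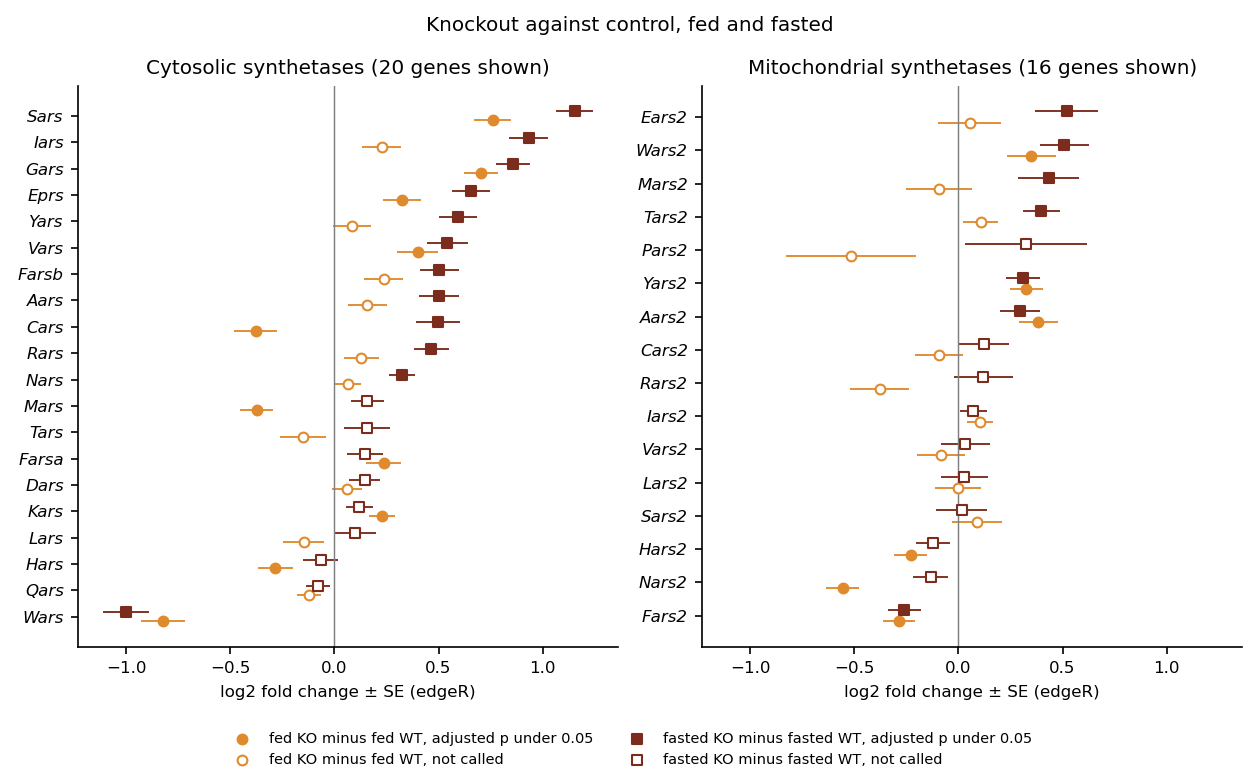
Log2 fold change of KO over WT (x axis, edgeR estimate ± SE) for the 20 cytosolic and 16 of the 17 mitochondrial synthetase genes, fed and fasted; filled symbols have an adjusted p under 0.05. Sars, Gars and Iars lie farthest to the right after the fast, at 1.15, 0.86 and 0.93, and Wars lies farthest to the left in both feeding states, at -0.82 fed and -1.0 fasted.

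After the fast, most of the called cytosolic genes stood above the controls in knockout livers. Of 20, 11 were higher and 1, Wars, was lower, with a median log2 fold change of 0.40 against 0.01 over all genes. Over all genes 13.8% were higher and 14.5% lower, 28.3% in all. Groups did not overlap in 12 cytosolic genes above and 1 below, where 14.2% and 15.3% of all genes did not.

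Sars measured 43.6, 43.3, 44.7 and 49.7 CPM in fasted WT and 85, 95.2, 107 and 117 in fasted KO. The groups were far apart, with a rise of 1.15 ± 0.09 (edgeR adjusted p 5.93e-08). Iars, for isoleucine, on chromosome 13, was at 42.9, 44.4, 51.1 and 44.8 CPM in fasted WT and at 79.9, 76.8, 90.7 and 102 in fasted KO. Its groups did not overlap either, and the rise was 0.93 ± 0.09 (edgeR adjusted p 1.01e-06). Gars measured 40.7, 43.1, 47.4 and 39.5 CPM in fasted WT against 66.1, 73.9, 79.8 and 89.5 in fasted KO. The lowest KO library was above the highest WT library, for a rise of 0.86 ± 0.08 (edgeR adjusted p 7.42e-07). Eprs stood at 143, 148, 158 and 155 CPM in fasted WT and at 220, 212, 247 and 274 in fasted KO. All KO libraries lay above, a rise of 0.66 ± 0.09 (edgeR adjusted p 3.66e-05). The other rises were Yars, for tyrosine, by 0.59 ± 0.09, Vars by 0.54 ± 0.10, Farsb, Aars and Cars by 0.50 ± 0.09, 0.50 ± 0.09 and 0.50 ± 0.11, Rars by 0.46 ± 0.08 and Nars by 0.33 ± 0.06 (adjusted p at most 0.00167). Aars shares 14.3% of its exon bases with Exosc6 on the same strand, so its reads are less certain. Farsa (0.15 ± 0.09), Tars (0.16 ± 0.11), Lars, for leucine (0.10 ± 0.10), and Qars, for glutamine (-0.08 ± 0.06), were among those that did not pass.

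Wars was again the lowest of the 37, at 12.5, 12.4, 14.1 and 13.2 CPM in fasted WT and 6.97, 6.97, 6.39 and 5.79 in fasted KO. Every KO library was below every WT library, with a fall of -1.0 ± 0.11 (edgeR adjusted p 3.75e-06). Leaving out fasted WT replicates 2 and 4 gave 12 cytosolic genes higher and 1 lower. That fit called 1558 of all 14345 genes tested higher and 1639 lower. With library totals, which moved the median of all genes to 0.20, 17 cytosolic genes were higher and 1, Wars, lower. Of the mitochondrial genes 7 were then higher and 0 lower. That scaling called 4301 of all 13905 genes tested higher and 902 lower.

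**Figure D2:**
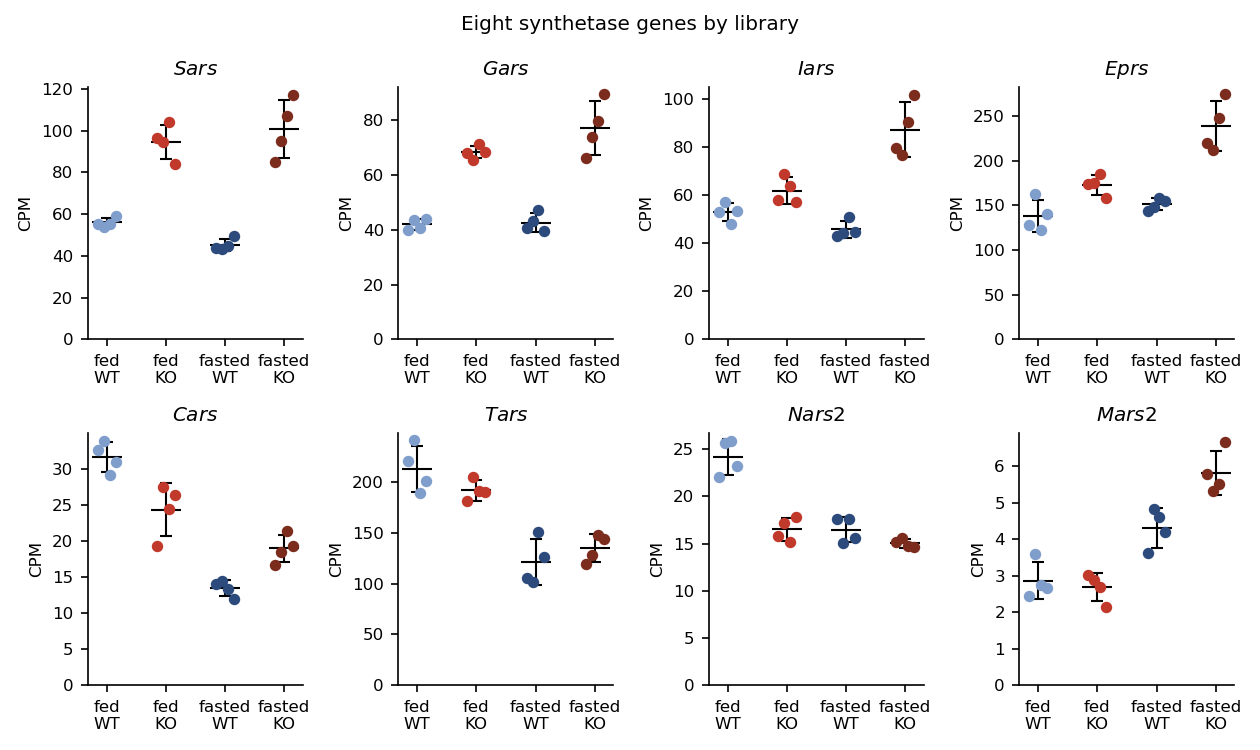
CPM per library (y axis, linear from 0) of 8 synthetase genes in the 4 groups, with the mean and SD. Sars and Gars stand higher in KO in both feeding states, while Cars is lowest in fasted WT, at 11.9 to 14.4 CPM.

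Mitochondrial genes after the fast gave 6 higher and 2 lower in KO of 17, with a median of 0.12. Over all genes 13.8% were higher and 14.5% lower. Ears2, for glutamate, rose by 0.52 ± 0.15 with overlapping groups, Wars2 by 0.51 ± 0.12, Mars2 by 0.43 ± 0.15, Tars2, for threonine, by 0.40 ± 0.09, Yars2 by 0.31 ± 0.08 and Aars2 by 0.29 ± 0.10 (adjusted p 0.00215 to 0.0316). The call of Mars2 was lost in 6 of 23 alternative settings, among them the fit without fasted WT replicates 2 and 4 (0.0634). That of Aars2 was lost in 4 and that of Ears2 in 2. Tars2 measured 15.4, 17.8, 18.6 and 20.7 CPM in fasted WT and 23.3, 22.8, 23.9 and 25.5 in fasted KO, with no overlap. Fars2 was lower, at -0.26 ± 0.08 (adjusted p 0.0177). Its call was lost in 7 of 23 settings, among them library totals (0.482) and the fit without fasted WT replicates 2 and 4 (0.217). Without fasted WT replicate 1 or without fasted KO replicate 4, 3 genes were called higher, beside 1566 of 14103 and 1467 of 14096 genes. The lower calls numbered 0 without fasted WT replicate 2 or fasted KO replicate 4, beside 1721 of 14099 and 1569 of 14096 genes.

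The difference between the genotype effects, fasted minus fed, was tested directly. It passed for 4 cytosolic genes, all in the direction of a higher value after the fast, and for 0 mitochondrial genes. Over all genes 1.7% passed, 1.07% in the higher and 0.633% in the lower direction. At an unadjusted p under 0.05, edgeR counted 9 cytosolic and 5 mitochondrial genes, all in the higher direction. No share of all genes was taken at that threshold, and the 1.7% does not apply to it. The DESeq2 Wald test called 4 cytosolic and 1 mitochondrial genes after adjustment. Over all 13905 genes that test called 285 higher and 245 lower. Cars had the largest such difference, 0.88 ± 0.15 (edgeR adjusted p 0.00796). It measured 32.6, 33.8, 29.1 and 30.9 CPM in fed WT, 19.2, 27.4, 24.4 and 26.3 in fed KO, 14, 14.4, 13.3 and 11.9 in fasted WT and 16.7, 18.4, 21.3 and 19.3 in fasted KO. KO was thus below WT in all fed libraries and above WT in all fasted libraries. Iars had a difference of 0.71 ± 0.13 (0.0116), Mars of 0.53 ± 0.11 (0.0228) and Yars of 0.51 ± 0.13 (0.0496), by edgeR adjusted p. Without fasted WT replicates 2 and 4, Cars alone passed, with Yars at 0.0968, Iars at 0.0655 and Mars at 0.0633. Of all 14345 genes in that fit, 39 were called higher and 33 lower. Without fed KO replicate 3, fasted WT replicate 2 or fasted KO replicate 3 in turn 2 cytosolic genes passed. All genes called higher in these fits numbered 54, 51 and 53. The Yars difference was lost in 17 of 22 alternative settings, DESeq2 size factors (0.0573) and library totals (0.0785) among them, and the Cars difference in 0. Wars had a difference of -0.18 ± 0.15 (adjusted p 0.612).

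In controls, fasting lowered more synthetase genes than it raised. Of the 20 cytosolic genes 1 rose and 7 fell (median -0.10), and of the 17 mitochondrial genes 1 rose and 9 fell (median -0.27), where 16.2% of all genes were higher and 18.3% lower, 34.5% in all. Without fasted WT replicates 2 and 4 the medians were -0.22 and -0.27. Groups did not overlap in 7 cytosolic and 10 mitochondrial genes below, against 17.6% of all genes in that direction. Cars fell by 1.24 ± 0.11 on the log2 scale, the largest change (edgeR adjusted p 4.73e-08), and all 4 fasted libraries lay below all 4 fed libraries. Tars, the highest cytosolic gene per kilobase in fed WT, went from 221, 241, 189 and 201 CPM to 105, 102, 151 and 126. The groups did not overlap, and the fall was -0.82 ± 0.11 (edgeR adjusted p 1.46e-05). Wars fell by 0.70 ± 0.11 and Yars by 0.50 ± 0.09 (adjusted p 5.13e-05 and 0.000311), and Nars, Sars and Mars fell by 0.36 ± 0.06, 0.30 ± 0.09 and 0.29 ± 0.08. Tars2 fell by 0.68 ± 0.09, Nars2 by 0.56 ± 0.08 and Cars2 by 0.54 ± 0.12 (adjusted p 7.83e-06, 3.04e-05 and 0.0016). Lars rose from 28.3, 31.5, 26.1 and 28.7 CPM to 41.7, 41.2, 47.2 and 34.4, by 0.52 ± 0.10 (edgeR adjusted p 0.000386), with no overlap. Mars2 rose by 0.59 ± 0.15 (adjusted p 0.00603), a call lost without fasted WT replicates 2 and 4 (0.0521).

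In knockouts, fasting raised and lowered cytosolic genes in shares near those of all genes, 25% and 20%, and still lowered more mitochondrial genes than it raised. It raised 5 and lowered 4 of 20 cytosolic genes (median 0.10) and raised 3 and lowered 8 of 17 mitochondrial genes (median -0.21), where 21.1% of all genes were higher and 20.3% lower, 41.4% in all. Lars rose by 0.77 ± 0.10, Iars by 0.50 ± 0.09, Eprs by 0.46 ± 0.09, Rars by 0.40 ± 0.08 and Mars by 0.24 ± 0.08, and these 5 belong to the multisynthetase complex (adjusted p 6.13e-06 to 0.0205). Kars, of the same complex, fell by 0.17 ± 0.06 (0.0395), a call lost in 9 of 23 alternative settings, and the call of Mars was lost in 5. Wars fell by 0.88 ± 0.11 and Tars by 0.51 ± 0.11 (adjusted p 6.49e-06 and 0.00122). Mars2 rose most, from 3.02, 2.87, 2.69 and 2.14 CPM to 5.79, 5.31, 5.51 and 6.68, without overlap, by 1.11 ± 0.15 (edgeR adjusted p 1.13e-05). Pars2 measured 0.734, 2.41, 1.11 and 0.728 CPM in fed KO and 2.48, 2.47, 2.46 and 2.52 in fasted KO. The groups did not overlap, though fed KO replicate 2 came close, and the rise of 0.97 ± 0.30 (edgeR adjusted p 0.0147) was lost without fed KO replicate 1 (0.0519). Aars2 and Tars2 fell by 0.40 ± 0.09 and 0.38 ± 0.09. The fasting and genotype comparisons share groups of libraries, so they are not independent.

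**Figure D3:**
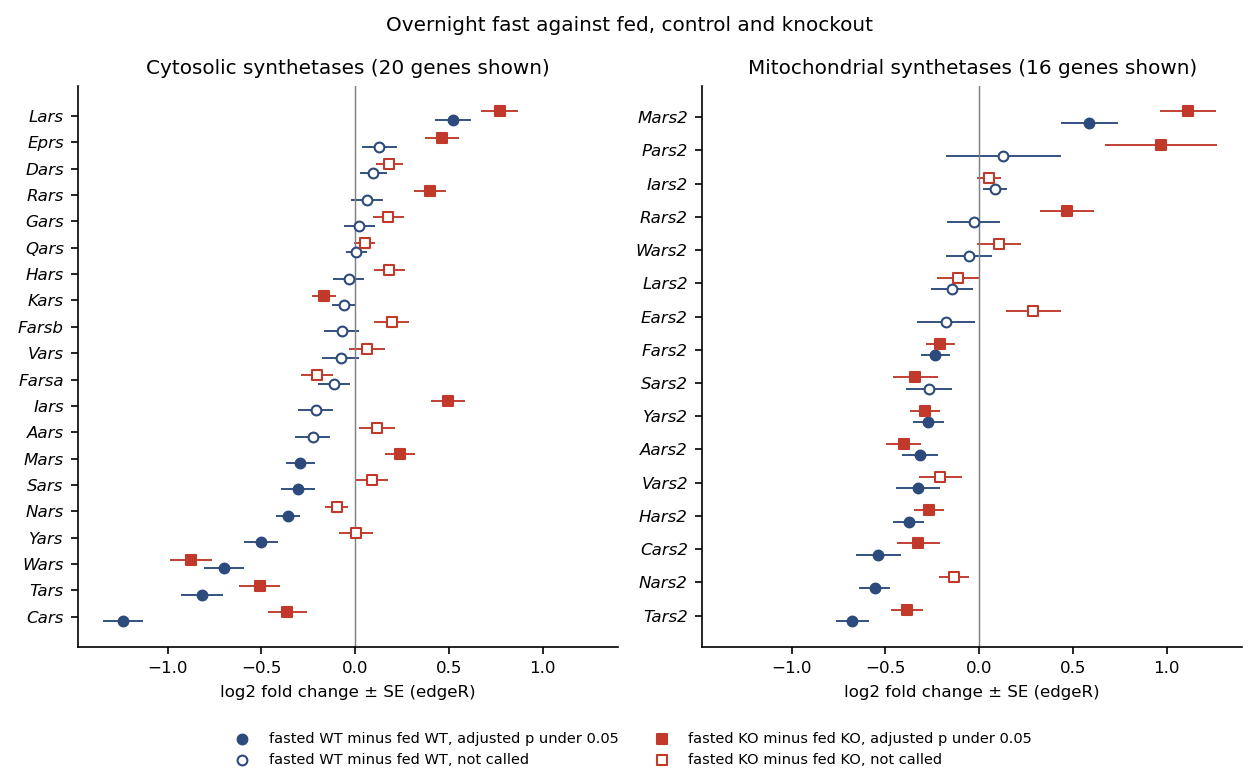
Log2 fold change of fasted over fed (x axis, edgeR estimate ± SE) for the 20 cytosolic and 16 of the 17 mitochondrial synthetase genes in WT and in KO; filled symbols have an adjusted p under 0.05. Most called mitochondrial genes lie to the left of 0 in both genotypes, and Lars and Mars2 lie to the right in both.

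The sum of the cytosolic genes was 1380 ± 89.2 CPM (SD, n = 4) in fed WT, 1500 ± 80.4 in fed KO, 1190 ± 52.1 in fasted WT and 1610 ± 127 in fasted KO. In fasted livers the range of KO, 1490 to 1770 CPM, did not meet that of WT, 1130 to 1250, while in fed livers the ranges overlapped. The mitochondrial sum was 315 ± 14.6 CPM in fed WT, 309 ± 14.1 in fed KO, 270 ± 6.90 in fasted WT and 286 ± 5.02 in fasted KO, and again did not overlap after the fast. Cytosolic reads per mitochondrial read came to 3.98 to 4.56 in fed WT, 4.75 to 4.94 in fed KO, 4.34 to 4.60 in fasted WT and 5.26 to 6.08 in fasted KO. This ratio lay higher in KO in both feeding states, without overlap, and no test was made of it.

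**Figure D4:**
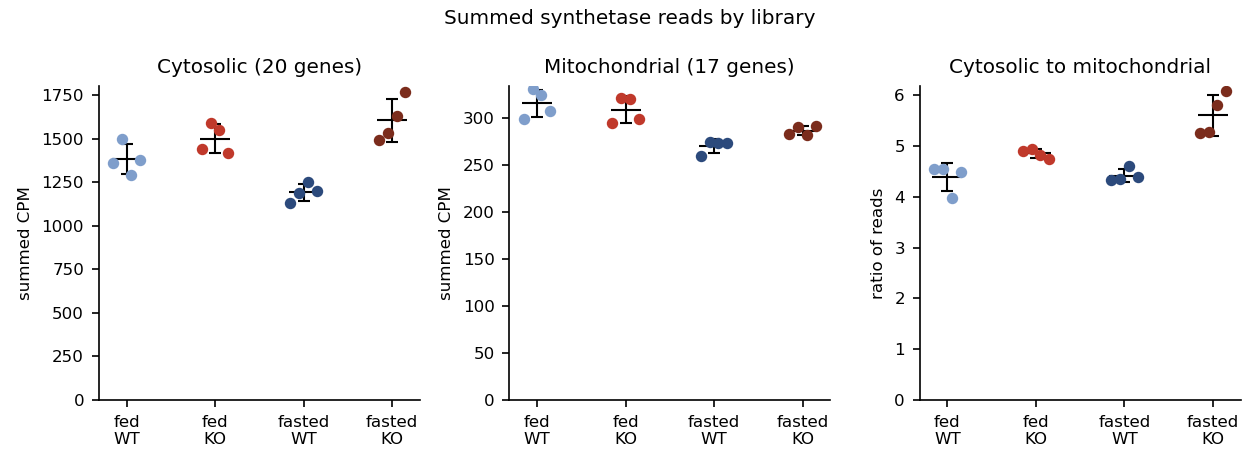
Summed CPM of the 20 cytosolic and the 17 mitochondrial synthetase genes, and their ratio, per library with the mean and SD. The ratio is highest in fasted KO, at 5.26 to 6.08, and fed KO lies at 4.75 to 4.94, above both WT groups.

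For 14 amino acids there is a cytosolic gene and a mitochondrial gene of matching name. Among these pairs the cytosolic log2 fold change was the larger in 6 in fed KO against fed WT and in 11 in fasted KO against fasted WT. Wars and Wars2 were the only pair called in opposite directions in the genotype comparisons, in fed livers with the Wars2 call that was lost in 6 settings. Wars2, the mitochondrial tryptophan enzyme, measured 4.41, 5.6, 5.56 and 5.05 CPM in fed WT and 6.98, 5.71, 7.06 and 6.6 in fed KO, where the groups just failed to overlap. After the fast it measured 5.2, 5.54, 4.64 and 4.55 CPM in WT and 6.42, 6.64, 7.23 and 8.04 in KO. Under fasting in controls the opposite pair was Mars, called lower, and Mars2, called higher.

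The multisynthetase complex holds 8 of the 20 cytosolic genes. In fed KO against fed WT 2 of the 8 were higher and 1 lower (median 0.10), and of the 12 outside it 4 were higher and 3 lower (0.12), beside 14% and 16.9% of all genes. After the fast 3 of 8 were higher (0.15) and 8 of 12 outside were higher and 1 lower (0.50), beside 13.8% and 14.5% of all genes. Among its accessory proteins, Aimp1 rose by 0.26 ± 0.07 in fed KO and by 0.44 ± 0.07 in fasted KO, and Eef1e1 rose by 0.46 ± 0.15 after the fast (edgeR adjusted p 0.0142, 0.000221 and 0.0256). Without fasted WT replicates 2 and 4, 1 of the 3 accessory genes tested was called higher in fasted KO. That fit called 1558 of all 14345 genes higher there.

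Wars held 1.49% to 1.59% of cytosolic synthetase reads in fed WT, 0.694% to 0.943% in fed KO, 1.04% to 1.13% in fasted WT and 0.326% to 0.468% in fasted KO. No 2 groups overlapped in that share. Without Wars, the other 19 cytosolic genes gave 6 higher and 3 lower in fed KO and 11 higher and 0 lower in fasted KO, with medians of 0.13 and 0.46. In fasted KO the DESeq2 Wald test and edgeR at an unadjusted p under 0.05 both called Wars as the only cytosolic gene lower. Wars kept its call under all 23 alternative settings in each of the 4 pairwise comparisons, between -0.95 and -0.60 in fed KO and between -1.06 and -0.81 in fasted KO.

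Wars (ENSMUSG00000021266) lies on chromosome 12 from 108860030 to 108894174 on the reverse strand of GRCm38, and Slc25a47 ends 3214 bases away at 108856815 on the forward strand. On the other side Wdr25, on the forward strand, overlaps the gene span of Wars but shares no exon with it. Wdr25 was at -0.35 ± 0.21 in fed KO (adjusted p 0.203) and 0.16 ± 0.21 in fasted KO (0.604), neither of which passed. The strand setting of the counting is not given in the sources used here. Whether the nearby deletion bears on Wars was not tested.

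**Figure D5:**
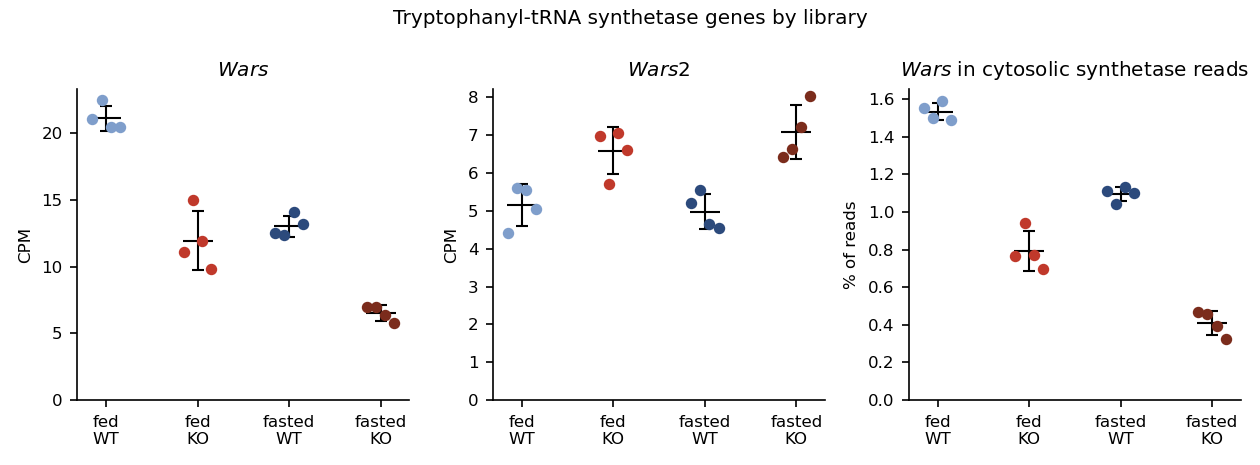
CPM per library of Wars and of Wars2, and the share of Wars in cytosolic synthetase reads (%), in the 4 groups with mean and SD. Wars falls from 20.5 to 22.5 CPM in fed WT to 5.79 to 6.97 in fasted KO, while Wars2 is higher in KO.

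The genes whose log2 CPM followed Wars most closely over the 16 libraries were Serpina1c (Pearson r 0.976), Glo1 (0.971), Zc3h7a (0.968), Proz (0.968) and Sucnr1 (0.966). These are descriptions over libraries that share groups. Among the synthetases described here, Fars2 (0.882), Nars2 (0.832) and Hars2 (0.799), all mitochondrial, were closest, and the farthest were Eprs (-0.871), Rars (-0.809) and Gars (-0.806).

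Lists of other genes were read beside the synthetases. Over all genes tested 14% were higher and 16.9% lower in fed KO, and 13.8% and 14.5% in fasted KO. After fasting 18.3% of all genes were lower in WT and 20.3% in KO. Of 20 tested ATF4 targets outside the synthetases, 15 were higher and 2 lower in fed KO (median 1.05) and 18 higher and 1 lower in fasted KO (1.96). Psat1, of serine synthesis, rose by 4.61 ± 0.25 and 4.75 ± 0.24, and Slc3a2, an amino acid transporter subunit, by 1.62 ± 0.11 and 2.15 ± 0.11 (edgeR adjusted p at most 6.37e-09). Of 21 interferon-induced genes 12 were lower in fed KO and 11 in fasted KO (medians -0.47 and -0.61), and 15 were lower after fasting in each genotype. None was called higher in those comparisons by edgeR or DESeq2, and at an unadjusted p under 0.05 the count was also 0. Ifit1, an interferon-induced antiviral gene, fell by 1.31 ± 0.24 and 1.53 ± 0.25 (adjusted p 0.00068 and 0.000289). What part these genes, or stellate cells, have in the synthetase results was not tested.

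Other genes of tRNA handling and translation were read in the same way, beside the 14% higher and 16.9% lower of all genes in fed KO and 13.8% and 14.5% in fasted KO. Several of the lists had counts near or under these shares. Of 13 cytosolic tRNA handling genes 3 were higher and 2 lower in fed KO (median -0.13) and 3 higher in fasted KO (0.13), led by Xpot, the tRNA export receptor, at 0.96 ± 0.11 and 0.73 ± 0.11 (edgeR adjusted p 2.6e-06 and 4.93e-05). Of 18 initiation and elongation factors 6 and 7 were higher (medians 0.18 and 0.19), led by Eef1b2, an elongation factor subunit, at 0.54 ± 0.07 and 0.43 ± 0.07. Of 23 genes for mitochondrial tRNA charging and translation, 2 were higher and 4 lower in fed KO and 6 higher in fasted KO (medians 0.01 and 0.16). Mtfmt, which formylates the mitochondrial initiator tRNA, fell by 0.58 ± 0.10 in fed KO, and Pus1, a pseudouridine synthase, rose by 0.42 ± 0.10 and 0.71 ± 0.11. Of 6 selenocysteine genes, Eefsec alone passed, at 0.47 ± 0.08 in fed KO, and none passed in fasted KO by edgeR or DESeq2, with 0 at an unadjusted p under 0.05. These counts depended on the scaling. With library totals, 13 of the 18 initiation and elongation factors were higher in fed KO and 14 in fasted KO. Likewise, 6 tRNA handling genes were higher and 0 lower in fed KO (median 0.09). Of the mitochondrial translation genes 9 were higher and 1 lower in fed KO and 14 higher in fasted KO. That scaling called 4886 of all 13905 genes higher and 915 lower in fed KO, and 4301 and 902 in fasted KO.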

How the data were processed

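Mouse livers were profiled in 4 groups of 4 libraries by RNA-seq with a stranded mRNA kit, per the labels' protocols. The values the authors deposited are unnormalized read counts for each gene. HTSeq 0.9.1, STAR 2.5.3a, cutadapt 1.8 and the build GRCm38 are named, per the submitters' processing notes. Neither the annotation release nor whether counting used strand is stated there. Summary lines that name no gene were left out of library sizes. Of all counts 32% to 45.8% were multiply aligned reads, 2.98% to 4.29% for no gene and 1.05% to 1.65% for several genes. Multiply aligned reads made up 41.5% to 45.8% in fed WT and 40.4% to 45.7% in fasted WT. In KO they were fewer, 32% to 39.3% fed and 32.2% to 34.8% fasted. Whether this difference between genotypes bears on the results was not tested. Of the identifiers, 99.8% were found in GENCODE M21, which gave positions, exon lengths and the names of overlapping and neighbouring genes. Symbols of the genes tested came with the deposited counts.

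Genes with low counts were left out by filterByExpr of edgeR 4.0.16, which kept 13905. TMM scaling factors ran from 0.903 to 0.966 for WT libraries and from 1 to 1.141 for KO libraries, and all 16 libraries entered 1 quasi-likelihood model with robust estimation and a coefficient per group. Adjusted p is by Benjamini-Hochberg over all genes tested, with a threshold of 0.05, and log2 fold changes are edgeR estimates. From the deposited counts, CPM was derived with these factors, and log2 CPM with a prior count of 2. Groups were called not overlapping when every library of one lay beyond every library of the other. The procedure was tested on simulated data. The replicates of a group differed from each other by 6.79 to 91.7 times the counting variance per gene, so none was counted as a duplicate.

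A single mitochondrial gene enters the counts, medians and sums and is not reported here by itself. The genes and lists were chosen with earlier results of these data known. Named genes are all members, up to 4 genes per list with the smallest p, the 5 genes most like Wars by Pearson r, Slc25a47 and the genes beside Wars. Replicate numbers were not used to pair the libraries in the main fit. The correlation of deviations exceeded 0.1 in 3 of 24 same-numbered pairs (-0.174 to 0.251), which cannot show that nothing was shared. Alternatives were DESeq2 size factors, library totals, no filter, the DESeq2 1.42.0 Wald test, a replicate block, only the libraries compared, fasted WT replicates 2 and 4 left out, and each library left out in turn.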

Additional observations from a re-analysis of the deposited data

Results flagged for a closer look

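The genotype effect differed between feeding states, by a test of the difference itself, for Cars (0.88 on the log2 scale), Iars (0.71), Mars (0.53) and Yars (0.51). The difference was lost in 17 of 22 alternative settings for Yars, in 4 for Mars, in 1 for Iars and in 0 for Cars. Among 148 groups of 4 libraries checked, 4 had a library standing far from its group, where chance alone gives about 1 group in 20. Kars in fed KO replicate 2 was low, at 60.2 CPM against 67.6 for the nearest and 69.1 for the farthest library. Nars in fasted KO replicate 4 was high, at 127 CPM against 116 and 115. Qars in fed WT replicate 1 was low, at 52.6 CPM against 56.3 and 56.7. Rars in fasted KO replicate 4 was high, at 57.3 CPM against 48.9 and 48.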

How the results depend on the processing

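No called gene reversed its direction under any setting, but with library totals the fed mitochondrial median turned from -0.08 to 0.14 and that of the tRNA handling list from -0.13 to 0.09. Of 78 calls of synthetase genes over the 5 comparisons, 50 were kept under all settings and 28 were lost under at least 1 of 23; the cause of the losses was not tested. With library totals, fed KO against fed WT gave 13 cytosolic genes higher and 1 lower and 5 mitochondrial higher and 1 lower. Fasted KO against fasted WT gave 17 cytosolic higher and 0 mitochondrial lower under that scaling. Of all 13905 genes it called 4886 higher and 915 lower in fed KO, and 4301 and 902 in fasted KO. Mitochondrial genes lower in fasted KO numbered 0 with no filter, 1 with only the libraries compared and 0 without fasted WT replicates 2 and 4. All genes lower in these fits numbered 1647 of 25622, 1914 of 13344 and 1639 of 14345. Without fasted WT replicates 2 and 4, fasting in WT gave 0 mitochondrial genes higher, beside 1945 of all 14345 genes. In the difference of genotype effects that fit gave 1 cytosolic gene, beside 39 higher and 33 lower of all genes. The DESeq2 Wald test gave 1 mitochondrial gene in that difference. The replicate block gave 6 cytosolic genes higher and 4 lower in fed KO and 11 higher and 1 lower in fasted KO, and lost 1 call, Kars in fasted KO against fed KO (adjusted p 0.0596). Whether same-numbered libraries shared more than a number is not known.

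Leaving out each library in turn gave, in fed KO against fed WT, 5 to 8 cytosolic genes higher and 3 to 4 lower, and 2 to 3 mitochondrial higher and 2 to 4 lower. Of all genes, 14064 to 14122 in these fits, 1430 to 2025 were higher and 1772 to 2467 lower. In fasted KO against fasted WT it gave 11 to 12 cytosolic higher, 1 lower throughout, 3 to 6 mitochondrial higher and 0 to 2 lower, beside 1467 to 1994 and 1569 to 2148 of all genes. Fasting in WT gave 1 and 7 to 8 cytosolic and 1 and 6 to 9 mitochondrial genes, higher and lower, beside 1918 to 2377 and 2211 to 2612 of all. Fasting in KO gave 4 to 6 and 3 to 5 cytosolic and 2 to 4 and 5 to 8 mitochondrial genes, with 5 without fasted KO replicate 3. Over all genes it gave 2614 to 3024 higher and 2459 to 2898 lower. In the difference 2 to 4 cytosolic and 0 to 1 mitochondrial genes were higher, the 1 without fed KO replicate 2. All genes higher there numbered 51 to 352, with 352 in that same fit. Depth limits the rarest genes: Pars2 had as few as 15 reads in a library. Overlapping exons limit others, and without the strand setting reads from opposite genes cannot be told apart: Iars2 shares 24.2% of exon bases with opposite genes, Fars2 10.7%, Farsb 9.47% and Vars2 8.52%.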
